A study of Mus musculus with 24 samples.

Results

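The 6 libraries described here are those of HL-1 cells that were neither stretched nor depleted of MuRF1, out of 24 libraries in the series. They were chosen by their sample titles alone and form 1 of 4 groups of 6. HL-1 is a beating line grown from mouse atrial cardiomyocytes, and it descends from a tumour of mice that carried a viral T antigen under the Nppa promoter. An adenovirus given at an MOI (virus particles able to infect, per cell) of 30 had delivered the scrambled hairpin Adsh_scrambled, the last medium held no serum, and poly(A) RNA was taken 48 h later after 0 min of stretch. Another group used here received the same virus and was then stretched by 15% at 1 Hz for 60 min, and a further one carried the hairpin against MuRF1 (Trim63) and was not stretched. Every group had received virus, so no library shows HL-1 cells without it, and the labels do not say that replicates are separate cultures. The spread over the 6 libraries may therefore be technical.

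Heart muscle cells of different chambers share most contractile genes and differ in a limited set. Atrial cells are known for the light chains Myl7 and Myl4, the peptide hormone Nppa and the COUP-TF factors, and ventricular cells for Myl2, Myl3, Myh7 and the homeobox factor Irx4. Pacemaker cells of the sinus node are known for the channel Hcn4, which carries part of the funny current, and for the factors Shox2, Isl1 and Tbx3. Many of these proteins come from families of paralogues, genes with a common origin, of which one cell type uses some and leaves others silent. The description below asks which of them the unstretched control cells held as messenger RNA, and at which level.

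Levels are given as TPM, that is, the estimated count of a gene divided by the length of its transcript and scaled so that every library has the same sum. CPM, the count scaled to the library total without the length, is used where libraries rather than genes are compared. The 6 libraries held 38.0 to 51.3 M estimated counts, with 16879 to 17371 genes above 0. No pair of libraries was identical, and log2 TPM correlated at 0.996 to 0.998 across genes in the 15 pairs. Of 18608 genes with a known length, 11117 (59.7%) reached 1 TPM in all 6 libraries, the limit used here for a gene being detected. Of those, 2673 had their lowest library between 1 and 10 TPM, 6657 between 10 and 100, 1651 between 100 and 1000, and 136 at or above 1000. A further 550 genes reached 1 TPM in only some libraries, and 1445 of the 20351 listed genes had 0 counts in all 6. Each listed gene had a count in at least 1 of the 24 libraries, since 0 genes were at 0 throughout.

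Transcripts of the mitochondrial genome and of the ribosome led the pool. The 13 mitochondrially encoded genes, all subunits of the respiratory chain or ATP synthase, took 5.40 ± 0.621% of TPM (SD, n = 6). The 88 listed ribosomal protein genes took 13.1 ± 0.227%, and 85 of them were detected. The 26 genes of the sarcomere list, in contrast, took 0.448 ± 0.0151% together. As shares of counts, without the length, the figures were 2.81 ± 0.292%, 4.77 ± 0.0960% and 0.292 ± 0.0102%. The 20 most abundant genes held 10.1% of TPM, the 100 most abundant 26.4% and the 1000 most abundant 61.2%. Short transcripts were frequent among the leaders: the median length was 846.5 bases in the 100 most abundant genes and 2708 bases in all detected genes.

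The highest gene was mt-Co1, a core subunit of cytochrome oxidase, with 11709, 13079.9 and 13961 TPM in the lowest, median and highest library. Next came Ftl1, the light chain of the iron store ferritin, at 8623 ± 209.6 TPM (SD, n = 6, as for all levels below), and the elongation factor Eef1a1 at 7401 ± 75.7 TPM. Among the 25 most abundant genes, 9 were mitochondrially encoded and 9 coded for ribosomal proteins. The mitochondrial ones were mt-Co1, mt-Cytb, mt-Atp6, mt-Nd1, mt-Nd4, mt-Co3, mt-Nd5, mt-Nd6 and mt-Nd4l, from 3291 to 12899 TPM. The ribosomal ones were Rps24, Rplp1, Rps25, Rplp0, Rps2, Rps4x, Rpl23a, Rps18 and Rpl13, from 2900.1 to 5430.2 TPM. The others were Ftl1, Eef1a1, the nuclear acidic protein Ptma (3839.6 TPM), the class I histocompatibility light chain B2m (3739 TPM), the glycolytic enzyme Gapdh (3119 TPM), the lysosomal protease Ctsd (2929.6 TPM) and the clone-named gene Gm47283 (3435 TPM). The set depended on the transcript length used: 22 of the 25 remained with the longest transcript, 18 with the union of exons, 17 with incomplete gene models kept and 12 in CPM. Of the 25, 14 shared over 50% of their 31-base words with transcripts of other annotated genes, mostly pseudogenes, so part of their reads can be assigned elsewhere.

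**Figure D1:**
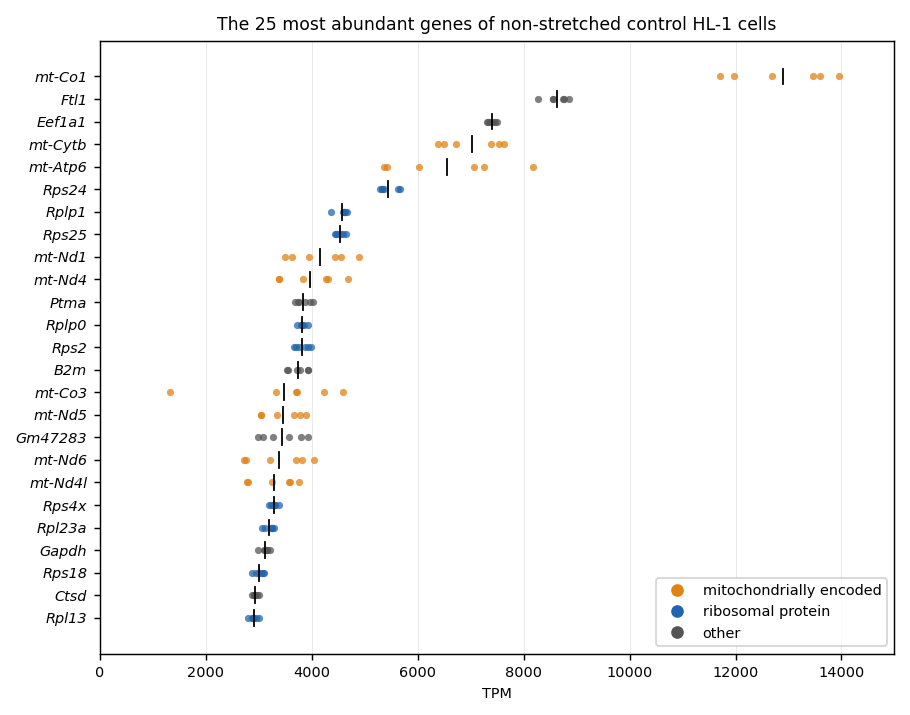
TPM of the 25 genes with the highest mean, 1 point per library and a bar at the mean (n = 6), coloured by class. Of these, 9 are mitochondrially encoded and 9 code for ribosomal proteins, and mt-Co1 lies highest.

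The atrial list was partly present. Of its 17 genes, 16 were listed in the table used here, 10 were detected, and 8 held at least 10 TPM in every library. Myl7, the atrial regulatory light chain (ENSMUSG00000020469, chr11:5896637-5898782, GRCm38), stood highest with 716, 733 and 772 TPM. The secreted-peptide processing enzyme Pam followed with 628, 664 and 708 TPM, and the secreted glycoprotein Dkk3 with 256, 259.9 and 267 TPM. The 6 libraries of each of these genes lay close together, with SDs of 23.4, 30.4 and 4.74 TPM.

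Below them came the lipid transfer protein Stard10 (111 ± 5.16 TPM) and the atrial COUP-TF factor Nr2f2 (68.5 ± 1.71 TPM). The T-box factor Tbx5 stood at 56.8 ± 1.35 TPM and the second COUP-TF factor Nr2f1 at 30.0 ± 1.83 TPM. Myl4, the atrial essential light chain, reached only 11.8, 12.7 and 15.1 TPM. Kcnj5, a subunit of the acetylcholine-gated potassium channel, held 8.48, 8.97 and 9.77 TPM, while its usual partner Kcnj3 held 0.672, 0.875 and 1.30 TPM and passed the limit in some libraries only. The connexin Gja5 was the last detected member, at 1.33 ± 0.161 TPM.

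The natriuretic hormone Nppa, the best-known atrial product, was close to the limit of detection. Its libraries held 0.731, 0.997 and 1.51 TPM, from 15.5 to 32.5 counts each, and the gene (ENSMUSG00000041616, chr4:148000722-148002079) ranked 11323 by mean TPM. The myosin-binding protein gene Mybphl stood at 0.815 ± 0.223 TPM and the growth factor Bmp10 at 0.227 ± 0.0187 TPM. The SERCA inhibitor sarcolipin (Sln) held 18 counts over the 6 libraries, and the potassium channel Kcna5 held 1. All 6 libraries of Bmp10, Sln and Kcna5 stayed under 1 TPM.

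**Figure D2:**
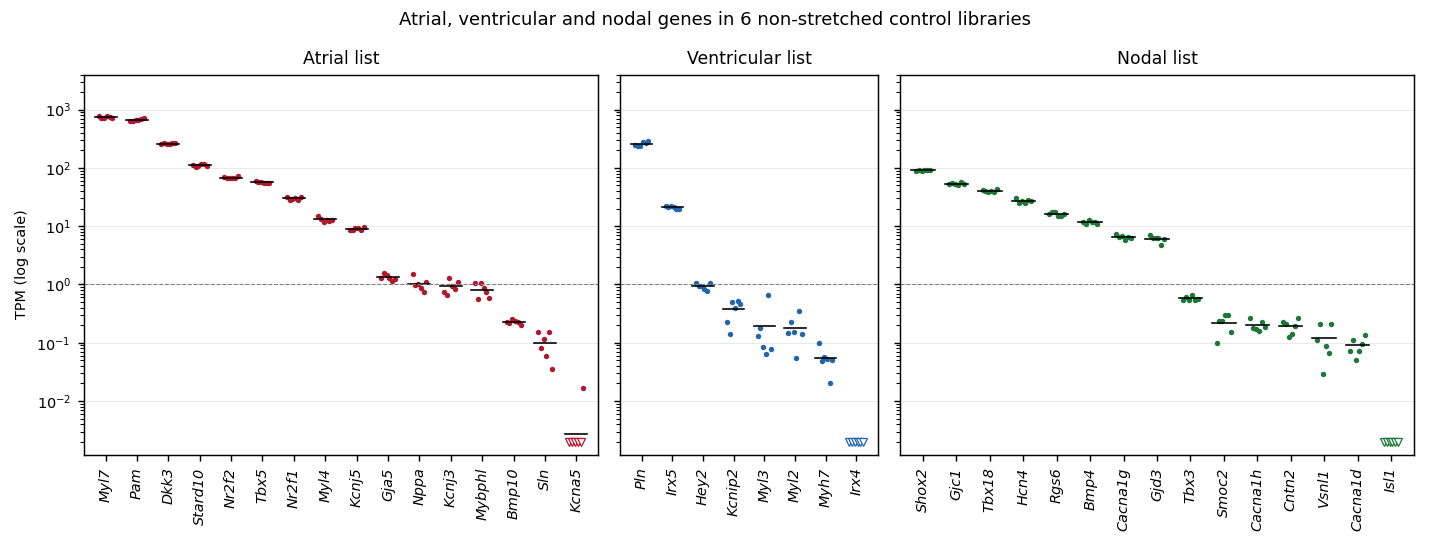
TPM (log axis) of the listed atrial, ventricular and nodal genes except 1 that is not drawn, 1 point per library and a bar at the mean (n = 6). Open triangles at the bottom are libraries under 0.002 TPM, the dashed line is 1 TPM, and the detected genes number 10 of 16, 2 of 8 and 9 of 16, the gene not drawn included.

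Most ventricular genes were at or near 0. Of 8 genes, 2 were detected. Pln, which restrains the calcium pump and is known as the ventricular counterpart of sarcolipin, held 233, 257 and 289 TPM, and the homeobox factor Irx5 held 19.8, 21.2 and 22.6 TPM. The repressor Hey2 stood at 0.938 ± 0.118 TPM and the potassium channel partner Kcnip2 at 0.379 ± 0.158 TPM. The ventricular light chains Myl3 and Myl2 held 0.197 ± 0.225 TPM and 0.179 ± 0.101 TPM, and the slow myosin heavy chain Myh7 held 0.0548 ± 0.0258 TPM. Irx4 had 0 counts, where 3 counts over the 6 libraries would have given 0.00915 TPM.

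Set against each other within a library, the light chains differed by large factors. The log2 ratio of Myl7 to Myl2 was 12.23 ± 0.920 (mean ± SD, n = 6), and that of Myl4 to Myl3 was 6.58 ± 1.23. For the pump inhibitors the order ran the other way with respect to the chambers: the log2 ratio of the ventricular Pln to the atrial Sln was 11.50 ± 0.905. Myl2, Myl3 and Sln rest on 17.5, 17 and 18 counts in all. All 6 libraries had the same order in each of the 3 pairs, and the ratios are descriptions with no test.

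Nodal genes fell into a detected and an undetected part. Of 16 genes 9 were detected, and 7 held at least 10 TPM in every library. Shox2, a factor that shapes the sinus node (ENSMUSG00000027833, chr3:66971727-66981771), held 88.1, 91.1 and 93.7 TPM. The nodal connexin Gjc1 held 51.9, 53.3 and 57.5 TPM and the T-box factor Tbx18, which acts in the formation of the sinus horn, 38.7, 40.8 and 43.1 TPM. The pacemaker channel Hcn4 (ENSMUSG00000032338, chr9:58823412-58863175) held 24.6, 26.7 and 29.9 TPM.

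The signal regulator Rgs6 stood at 16.2 ± 1.02 TPM and the growth factor Bmp4 at 11.7 ± 0.692 TPM. The T-type calcium channel Cacna1g (6.58 ± 0.539 TPM) and the connexin Gjd3 (6.13 ± 0.748 TPM) were lower. The nodal repressor Tbx3 held 0.544, 0.551 and 0.655 TPM, under the limit in all libraries, and the log2 ratio of Shox2 to Tbx3 was 7.31 ± 0.107. Isl1, a factor of the early node, had 0 counts, with a floor of 0.0122 TPM. The calcium channels Cacna1h and Cacna1d, the adhesion protein Cntn2, the calcium sensor Vsnl1 and the matrix protein Smoc2 ranged from 0.0898 to 0.219 TPM.

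Reads of these lists could mostly be told from those of other genes. Of the 40 listed atrial, ventricular and nodal genes, 38 shared under 5% of their 31-base words with transcripts of any other annotated gene, and 15 shared none. The exceptions were Myh7, which shared 30.6%, nearly all of it with Myh6, and Gja5, which shared 14.2%, mainly with Zfp697. In poly(A) RNA from a whole culture, fewer cells of a type and less RNA per cell cannot be told apart.

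The promoter sequences of 4 of these genes are shown because pairs of them from the same list ended far apart in level: Myl7 and Nppa among the atrial genes, Shox2 and Isl1 among the nodal ones. Each is the 250 bases before the annotated start in RefSeq on GRCm38.p6, read on the strand of the gene. Capitals mark matches to the TATA word TATAAA, to the GATA-factor words AGATAA and also TGATAA, the variant AGATAG and the variant TGATAG, or to the SRF word called the CArG box, on either strand. They lie at chr11:5898783-5899032 (minus strand), chr4:148000472-148000721 (plus), chr3:66981772-66982021 (minus) and chr13:116309689-116309938 (minus).
Myl7: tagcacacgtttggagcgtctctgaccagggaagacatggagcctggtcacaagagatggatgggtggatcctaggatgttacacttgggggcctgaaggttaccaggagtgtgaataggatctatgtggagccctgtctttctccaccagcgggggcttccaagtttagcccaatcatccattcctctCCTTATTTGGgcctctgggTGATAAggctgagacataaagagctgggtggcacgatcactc
Nppa: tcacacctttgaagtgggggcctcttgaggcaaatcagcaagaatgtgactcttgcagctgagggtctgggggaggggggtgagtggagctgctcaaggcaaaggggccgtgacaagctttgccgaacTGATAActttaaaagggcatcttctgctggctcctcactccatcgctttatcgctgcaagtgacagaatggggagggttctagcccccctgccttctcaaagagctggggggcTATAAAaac
Shox2: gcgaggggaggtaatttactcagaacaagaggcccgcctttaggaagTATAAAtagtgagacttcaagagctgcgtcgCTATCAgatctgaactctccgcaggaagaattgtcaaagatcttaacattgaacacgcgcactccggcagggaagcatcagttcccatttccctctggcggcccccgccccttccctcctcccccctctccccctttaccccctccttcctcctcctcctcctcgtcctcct
Isl1: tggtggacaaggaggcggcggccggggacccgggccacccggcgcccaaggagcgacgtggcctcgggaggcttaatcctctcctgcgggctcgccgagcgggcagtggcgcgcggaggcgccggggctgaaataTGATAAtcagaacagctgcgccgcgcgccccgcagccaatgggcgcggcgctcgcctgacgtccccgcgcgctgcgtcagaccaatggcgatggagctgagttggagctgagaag

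A GATA word stood in all 4 windows, those of Nppa and Isl1 included. TATAAA stood in the windows of Nppa, from 9 to 4 bases before the start, and of Shox2, from 203 to 198 bases before it. The window of Myl7 held a CArG box from 61 to 52 bases before the start and a GATA word from 42 to 37. None of the matched words overlapped another. Such words are common: of 32851 windows of the same length, 26.5% held a GATA word, 12.4% TATAAA and 1.47% a CArG box.

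The same search covered the 102 listed genes of the atrial, ventricular, nodal, sarcomere, calcium and cardiac factor lists, of which 75 had a promoter in the table. Of 55 detected genes with a promoter, 7 (12.7%) held a CArG box in at least 1 window. Those were Myl7, Actc1, Myom1, Ldb3, Nebl, Srf and Hopx, from 1.76 to 741 TPM. Of the 20 undetected genes with a promoter, 1 (5.00%) held one, Myl3. Of all 8700 detected genes of the table with a promoter, 1.51% did. GATA words stood in 34.5% of the 55 detected and in 40.0% of the 20 undetected genes, against 19.7% of all 8700 detected genes and 24.8% of all 14240 genes with a promoter. TATAAA stood in 9.09% of the 55 and 20.0% of the 20, against 7.39% of the 8700 and 11.8% of the 14240. A word of the MEF2 factors, searched as well, stood in 9.09% and 5.00%, against 1.85% and 2.69%. A matching word is a description of the sequence and no evidence of binding.

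Genes of the sarcomere, the contractile unit of striated muscle, were widely detected but at unequal levels. Of 26 genes, 23 were detected, 11 held at least 10 TPM in every library and 6 at least 100. Tnnt2, cardiac troponin T, led with 1996, 2234 and 2315 TPM (ENSMUSG00000026414, chr1:135836354-135852260) and was the only gene of the list among the 100 most abundant. The tropomyosin Tpm1 held 721, 751 and 782 TPM and cardiac troponin I (Tnni3) 309.8, 329 and 346 TPM. Cardiac alpha-actin (Actc1) held 105, 124 and 161 TPM, the widest spread of these 4 relative to its level.

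The filament of intermediate type, desmin (Des), stood at 119 ± 4.43 TPM, the thin-filament proteins Nebl and Tmod1 at 43.5 ± 1.42 TPM and 40.8 ± 1.12 TPM, and cardiac troponin C (Tnnc1) at 28.9 ± 0.947 TPM. Large structural proteins were lower per length. The Z-disc alpha-actinin Actn2 stood at 10.7 ± 1.04 TPM, myosin-binding protein C (Mybpc3) at 9.38 ± 1.33 TPM and the giant protein titin (Ttn) at 6.29 ± 0.599 TPM. The undetected members included Myom2 (0.253 TPM) and Xirp2 (0.00530 TPM).

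Sarcomeric myosin heavy chain was scarce whichever gene was read. Myh8, known as the perinatal chain of skeletal muscle, was the highest of 9 with 4.25, 4.64 and 4.96 TPM, and Myh6, the atrial alpha chain, followed with 1.60, 1.83 and 2.26 TPM. The libraries of the pair did not overlap, and the log2 ratio of Myh8 to Myh6 was 1.32 ± 0.22. This order depended on the length: the ratio was -0.0074 with the union of exons and -2.16 when incomplete models were kept. Myh8 shared 25.4% of its 31-base words with other sarcomeric chains and Myh6 31.7%. Nonmuscle chains were far more abundant, with Myh9 at 267 ± 11.7 TPM and Myh10 at 64.5 ± 2.51 TPM.

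Light chains of the nonmuscle and smooth muscle kind also led their families. Of the regulatory chains, Myl12a stood first with 1264 ± 22.1 TPM, ahead of Myl7, at a log2 ratio of 0.77 ± 0.0402. That ratio was -0.29 with the longest transcript and -1.09 with the union of exons, so the order depends on the length used. The smooth muscle chain Myl9 stood just below them at 683 ± 26.4 TPM. Among the essential chains Myl6 stood at 2062 ± 58.7 TPM and made up 93.7 ± 0.212% of the family, followed by Myl1, a fast skeletal chain, at 91.2 ± 1.71 TPM. The atrial Myl4 stood below both and below Myl6b (33.4 TPM).

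Actins were led by the 2 cytoplasmic genes and by smooth muscle alpha-actin. Actg1 held 2624, 2831 and 3023 TPM and Actb 2366, 2432 and 2469.8 TPM. Acta2, the smooth muscle gene (ENSMUSG00000035783, chr19:34241090-34255590), held 2085, 2193 and 2355 TPM and was the highest muscle actin. Its log2 ratio to the cardiac Actc1 was 4.13 ± 0.175, and to the skeletal Acta1 (6.74 TPM) 8.36 ± 0.204. With the union of exons Acta2 passed Actg1. The same cells held other genes of the smooth muscle list, Tagln at 179.6 ± 13.0 TPM, Smtn at 70.3 ± 2.89 TPM and Cnn1 at 18.3 ± 0.970 TPM, while its heavy chain Myh11, the defining marker, held 0.153 to 0.255 TPM.

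Troponins followed the cardiac pattern in part. Tnni3 exceeded the slow skeletal Tnni1 (128 TPM) at a log2 ratio of 1.36 ± 0.0372, and Tnnt2 made up 99.6% of troponin T, with Tnnt1 at 9.44 TPM. Troponin C was the closest pair: the cardiac Tnnc1 held 27.6 to 30.2 TPM and the fast skeletal Tnnc2 18.6 to 22.3 TPM, which did not overlap. Tpm1 exceeded Tpm4 (653 TPM) at a log2 ratio of 0.20 ± 0.0669, and this turned to -0.61 with the longest transcript, -1.73 with the union of exons and -0.17 in CPM. The alpha-actinins Actn4 (413 TPM) and Actn1 (261 TPM), nonmuscle genes, stood above Actn2.

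Over all 68 families, with 258 listed members of 261, the choice of the leading paralogue was repeatable between libraries. In 65 families the libraries of the highest and of the second member did not overlap. The 3 families with overlap were the natriuretic peptides (Nppa and Nppb), the T-box factors (Tbx20 and Tbx5, in order in 4 of 6 libraries) and the AMPK gamma subunits (Prkag1 and Prkag2, in 5 of 6). A single member made up at least 90% of the family's TPM in 28 families and less than 50% in 7. At least 2 members were detected in 47 families, 1 member in 18 and none in 3, the natriuretic peptides, the Kv4 potassium channels and the creatine kinases. The highest gene was the same with 4 other lengths and with the authors' normalized signal in 58 families. With CPM included as well, it was the same in 55.

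**Figure D3:**
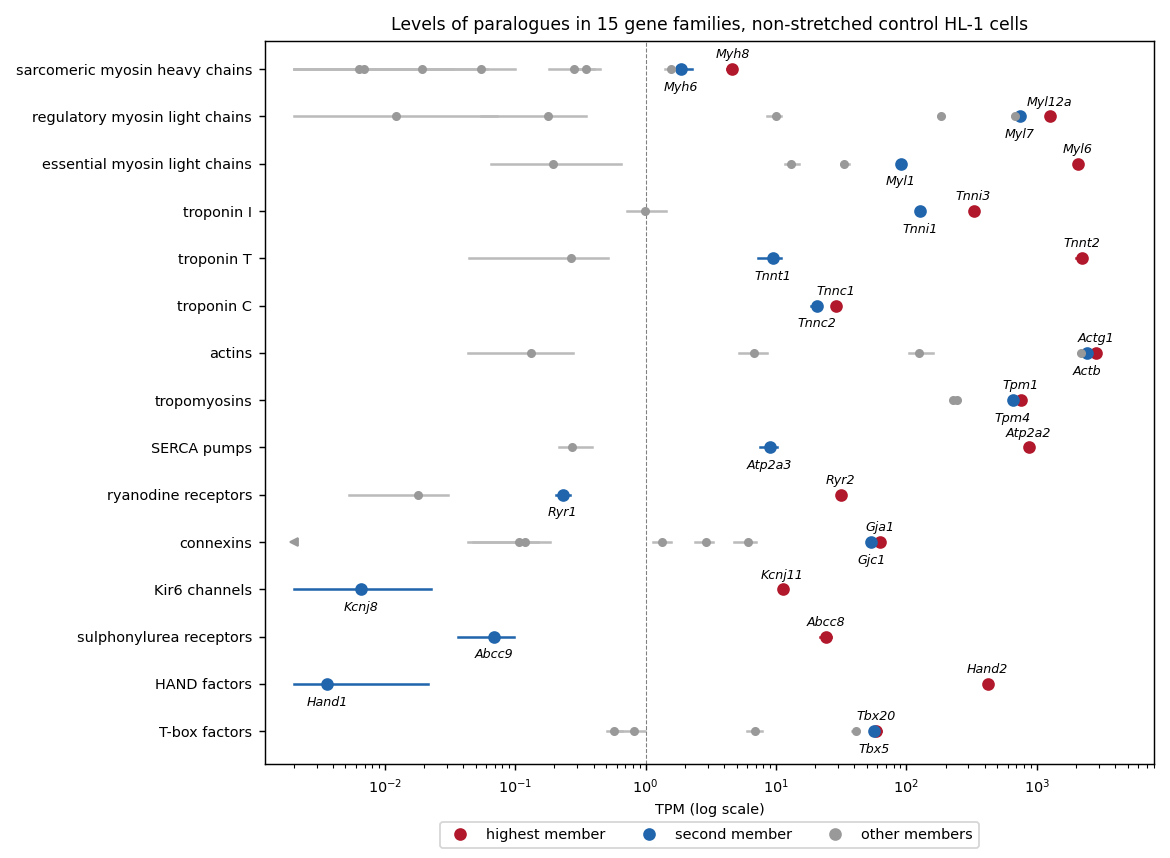
TPM (log axis) of the members of 15 families, with points at the mean and lines from the lowest to the highest library (n = 6), drawn no lower than 0.002 TPM, where a triangle marks a mean below that value. Highest and second members are named, and the dashed line is 1 TPM.

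Calcium handling genes of cardiac type led their families. Atp2a2, the cardiac calcium pump SERCA2, held 838, 871 and 893 TPM and made up 98.9% of the SERCA genes, followed by Atp2a3 at 8.97 TPM. Its inhibitor Pln made up nearly all of 3 small inhibitor genes. The release channel Ryr2 stood at 31.5 ± 1.41 TPM, with Ryr1 at 0.232 TPM, and the exchanger Slc8a1 at 38.8 ± 1.85 TPM, with Slc8a2 at 1.33 TPM. Of the 23 genes of the calcium and channel list 19 were detected. The calcium store Casq2 stood at 5.83 ± 0.231 TPM, ahead of Casq1 at 1.69 TPM. Of its partners at the release channel, Asph stood at 76.0 ± 2.62 TPM, the junction protein Jph2 at 31.3 ± 1.69 TPM and Trdn at 5.38 ± 0.576 TPM.

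Among ion channels, one gene per current was usually present. The L-type calcium channel was Cacna1c (16.0 ± 1.06 TPM, 98.7% of the family, with Cacna1s second at 0.121 TPM), and the T-type one Cacna1g (96.6%). Kcnh2, the rapid delayed rectifier, was the highest potassium channel of the list with 140.4, 147 and 153 TPM, and Kcnq1, the slow one, held 4.92 to 6.70 TPM. The inward rectifier Kcnj2, which sets the resting potential of ventricular muscle, held 0, 0.0297 and 0.0510 TPM, and in its family Kcnj4 led at 2.67 ± 0.135 TPM before Kcnj14 at 0.729 TPM. Transient outward channels were undetected, with Kcnd1 highest at 0.843 TPM and Kcnd2 at 0.0748 TPM.

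The ATP-sensitive potassium channel was of the kind with Kcnj11 and Abcc8. The pore gene Kcnj11 held 10.5, 11.2 and 12.2 TPM and Kcnj8 held 2 counts in all. The regulatory subunit Abcc8, the sulphonylurea receptor known from pancreatic beta cells and atrial muscle, held 22.0, 24.2 and 26.2 TPM, while Abcc9, known from ventricular muscle, held 0.0362, 0.0721 and 0.0977 TPM. The groups of libraries of both pairs did not overlap. Hcn4 exceeded Hcn2 (6.35 TPM) at a log2 ratio of 2.08 ± 0.156. Connexins were mixed, with Gja1 at 62.6 ± 1.93 TPM and Gjc1 close behind at a log2 ratio of 0.22 ± 0.0670, which was -0.10 with the union of exons.

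Cardiac transcription factors were present with few exceptions. Of 19 genes 16 were detected and 14 held at least 10 TPM in every library. Hand2, a basic helix-loop-helix factor, was highest with 408, 423 and 429.8 TPM, whereas its paralogue Hand1 held 1 count in all. Gata4 stood at 203 ± 6.33 TPM, ahead of Gata6 (92.7 TPM) at a log2 ratio of 1.13 ± 0.0636. Mef2a stood at 143 ± 7.46 TPM and Mef2d at 107 ± 8.30 TPM, in an order that turned to -0.38 with the union of exons. The homeodomain-only protein Hopx stood at 140.3 ± 3.66 TPM.

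Other factors gave closer pairs. Tbx20 (58.7 ± 2.65 TPM) and Tbx5 differed by a log2 ratio of 0.05 ± 0.0833, with overlap, and Nr2f2 exceeded Nr2f6 (61.2 TPM) at 0.16 ± 0.0739. Both ratios turned with other lengths, to -0.69 and -0.36 with the longest transcript. Irx5 led Irx3 (11.8 TPM) at 0.85 ± 0.0797, and Hey1 (8.47 TPM) led Hey2 at 3.17 ± 0.20. Prox1 stood at 0.966 TPM, under the limit in some libraries, and Isl1 at 0.

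Receptors for the autonomic transmitters were selective. The muscarinic receptor Chrm2, through which the vagus nerve slows the heart, held 78.6, 82.7 and 96.6 TPM, with Chrm4 at 3.89 TPM and Chrm3 at 0 counts. The beta-1 receptor Adrb1 held 13.5, 14.1 and 15.6 TPM and the beta-3 receptor Adrb3 4.58, 5.55 and 6.13 TPM. Of the 26 receptor genes 17 were detected, the highest being the cytokine co-receptor Il6st (252 ± 5.86 TPM), then Chrm2, the natriuretic clearance receptor Npr3 (50.6 ± 3.90 TPM) and Igf1r (43.3 ± 2.64 TPM). The thyroid receptor Thra (41.0 ± 0.594 TPM) exceeded Thrb (0.861 TPM). Angiotensin receptors were at or near 0, with 2.01 counts for Agtr1a, 1 for Agtr1b and 0 for Agtr2.

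Energy metabolism genes were a mixture of heart and general forms. Creatine kinases, which buffer ATP in adult muscle, were near or under the limit. Ckm was highest with 0.785, 0.984 and 1.31 TPM, and Ckmt1 followed at 0.132 TPM. Lactate dehydrogenase was mainly Ldha (1363 ± 27.7 TPM, 96.9%), with the heart form Ldhb at 43.2 ± 0.821 TPM. Enolase was mainly Eno1 (1873 TPM), with the muscle form Eno3 at 65.1 TPM. The heart fatty acid carrier Fabp3 stood at 631 ± 20.4 TPM and Fabp5 at 109.8 ± 4.77 TPM, and the liver form Cpt1a of carnitine palmitoyltransferase at 100.3 ± 1.42 TPM, ahead of Cpt1c (19.3 TPM).

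Subunits of cytochrome oxidase with a heart form were read mainly from the general gene. Cox6a1 held 1439 ± 40.3 TPM and the heart form Cox6a2 192 ± 16.7 TPM. For subunit VIIa the general Cox7a2 held 537 TPM and the heart form Cox7a1 49.4 TPM, and for subunit VIII Cox8a held 1808 TPM and Cox8b 7.65 TPM. Cox4i1 stood at 1578 TPM and Cox4i2 at 0.251 TPM. The translocator Slc25a5 exceeded the heart form Slc25a4 (722 TPM) at a log2 ratio of 0.44 ± 0.0215, which was -0.20 in CPM. None of these pairs overlapped between libraries.

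Sugar use showed the same kind of mixture. The transporter Slc2a1 stood at 62.6 ± 1.60 TPM and the insulin-responsive Slc2a4 at 24.5 ± 1.64 TPM. Hexokinase Hk1 (89.3 TPM) led Hk2 (40.2 TPM), phosphoglycerate mutase Pgam1 (1063 TPM) led the muscle form Pgam2 (333 TPM), and glycogen phosphorylase Pygb (204 TPM) led the muscle form Pygm (3.09 TPM). The nuclear receptor Ppard (59.7 TPM) led Ppara (3.04 TPM). Of the energy sensor AMPK, the catalytic gene Prkaa2 (77.9 TPM) led Prkaa1 (61.1 TPM), and the gamma genes Prkag1 (122 TPM) and Prkag2 (118 TPM) overlapped. The elongation factor Eef1a2, the form of adult muscle and nerve, stood at 222 TPM against Eef1a1.

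Junction and membrane genes had a leader in most families. Desmosomal messenger came mainly from Dsg2 (123 ± 2.74 TPM), with Dsg1c at 12 counts, and Dsc2 (4.57 ± 0.618 TPM), with Dsc1 at 2 counts. Pkp2 (81.1 TPM) exceeded Pkp4 (64.6 TPM), an order that turned to -0.18 on the log2 scale with the union of exons and -0.28 in CPM. N-cadherin (Cdh2) stood at 286 ± 6.65 TPM, ahead of Cdh13 (12.9 TPM). The integrin Itgb1 (511 TPM) led Itgb5 (149 TPM), and the muscle caveolin Cav3 (134 ± 3.61 TPM) led Cav1 (51.5 ± 3.21 TPM). Sgce (159.9 TPM) led Sgcb (65.0 TPM), though with the union of exons the log2 ratio was -1.28.

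Further families had these leaders and seconds. Itpr1 (60.1 TPM) led Itpr3 (18.2 TPM), and Mybpc3 led Mybphl at a log2 ratio of 3.54 ± 0.33. Myom1 (1.76 TPM), an M-band protein, led Myom3 (0.256 TPM). Trim63, the gene of MuRF1, held 556, 672 and 757 TPM in these cells, Trim55 (MuRF2) 24.6, 25.2 and 26.4 TPM, and Trim54 (MuRF3) 0 counts, with a floor of 0.0160 TPM. Trim63 thus made up 96.3% of the 3 MuRF genes.

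Genes of cell division were abundant. Of 25 proliferation genes 24 were detected and 19 held at least 100 TPM in every library. The replication clamp Pcna led with 549, 561 and 589.5 TPM, the helicase subunits Mcm7 and Mcm6 followed at 339 TPM and 329 TPM, and the topoisomerase Top2a stood at 302 TPM. Mki67, the usual marker of cycling cells, held 273, 279.5 and 288 TPM. D cyclins were unequal: Ccnd3 held 93.9 ± 1.92 TPM, Ccnd1 4.74 ± 0.251 TPM, and Ccnd2, the undetected member, 0.270, 0.580 and 1.27 TPM.

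Markers of other cell types were mostly at or near 0, apart from the smooth muscle list. Of its 6 genes 5 were detected, with a sum of 2456 to 2775 TPM. In the leukocyte list 1 of 8 listed genes was detected (Cd68, 2.44 TPM) and the summed level was 2.49 to 3.42 TPM; Ptprc was not listed in the table used here. In the neuron and glia list 2 of 8 were detected, with a sum of 3.75 to 4.62 TPM, and in the erythroid list 0 of 5, with a sum of 0.808 to 1.54 TPM. In the adipocyte list 1 of 5 was detected, Fabp4 at 28.8 ± 3.05 TPM, while Adipoq held 0.0464 TPM. In the skeletal muscle list 3 of 13 were detected, Tnnc2 (20.6 TPM), the fast light chain Mylpf (9.94 TPM) and Acta1, while the lineage factors Myod1, Myog, Myf5 and Pax7 ranged from 0.00175 to 0.0157 TPM.

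Fibroblast, endothelial and epithelial lists were detected in part. Of 10 fibroblast genes 5 were detected: Col1a1 (47.9 ± 1.60 TPM) and Col3a1 (31.2 ± 0.471 TPM) led, with Pdgfra (2.76 TPM), Dcn (2.65 TPM) and Postn (1.92 TPM) lower, and Tcf21 at 0 counts. The partner chain of Col1a1, Col1a2, held 0.0854, 0.112 and 0.158 TPM, a log2 ratio of 8.71 ± 0.314 in favour of Col1a1. Of 9 endothelial genes 3 were detected, Egfl7 (43.6 ± 2.05 TPM), Kdr (1.93 TPM) and Tek (1.47 TPM), while Pecam1 held 0.186 TPM and Cdh5 5 counts. Of 6 epithelial genes 2 were detected, Krt18 (39.5 ± 1.37 TPM) and Epcam (9.35 ± 0.480 TPM). The usual partner of Krt18, Krt8, held 0.0813, 0.128 and 0.185 TPM, and Krt14 had 0 counts.

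Of 7 epicardial genes 3 were detected, Tbx18, the zinc finger factor Wt1 (5.88 ± 0.319 TPM) and Upk3b (2.38 TPM). Including family members, 12 listed genes had 0 counts in all 6 libraries: Irx4, Isl1, Chrm3, Agtr2, Tcf21, Krt14, Trim54, the small SERCA inhibitor Mrln, the connexin Gjb2, Irx6, the liver fatty acid carrier Fabp1 and the desmocollin Dsc3. A floor of 3 counts over the 6 libraries would have given these genes between 0.00538 TPM (Dsc3) and 0.0514 TPM (Mrln). A count of 0 does not exclude levels below that floor.

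Levels varied little between libraries for most genes. Among 8599 genes with a mean of at least 10 TPM and without clone names, the coefficient of variation of CPM (CV, SD over mean) had a median of 3.89%, with 2.01% at the 10th and 7.31% at the 90th percentile. The 10 steadiest genes were Psat1, an enzyme of serine synthesis (0.248%), the lysosomal protease Lgmn (0.394%), Dennd5a (0.432%), the ATP synthase subunit Atp5g3 (0.516%), Ankrd17, the mitotic kinase Aurkb, the disulphide isomerase P4hb, Trafd1, Ube2h and Sun1 (0.663%). Counting error alone would give 0.663% for Psat1, more than was seen.

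The 10 most variable genes had CVs from 27.0% to 47.8% and are given here by whether they shared 31-base words with other genes. Of them, 3 shared no 31-base word with another annotated gene: Egr1, Fos and Cyr61, genes that respond within minutes to growth signals. Egr1 held 127, 72.9, 50.9, 111, 47.2 and 101 TPM in replicates 1 to 6, Fos 32.5, 17.7, 12.6, 27.7, 12.9 and 26.1 TPM, and Cyr61 277, 159, 116, 211, 107 and 198 TPM. Replicates 1, 4 and 6 were high and replicates 3 and 5 low for all 3 genes. Over the same libraries Myl7 stayed within 716 to 772 TPM and Hcn4 within 24.6 to 29.9 TPM.

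The other 7 variable genes shared from 7.47% to 100% of their 31-base words with other genes. Sharing is common: of the 40 listed atrial, ventricular and nodal genes, 15 shared none. Apart from the sum given below for Rps27, the part of sharing in the spread was not tested. Pagr1a shared 93.2% of its 31-base words, Pde2a 86.2%, Rps27 50.1%, Naa60 16.1%, mt-Co2 100%, mt-Co3 99.9% and mt-Atp8 7.47%. For Rps27 the relative, Rps27rt, was in the table: Rps27 had a mean of 7.93 CPM and Rps27rt of 332 CPM. Summed, the CV was 2.93% against 38.8% for Rps27 alone. The relatives of the other 6 were not listed in the table used here or shared under 10%. The level of mt-Co3 ranged over 1325, 3712 and 4592 TPM, and replicate 5 held the lowest value.

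**Figure D4:**
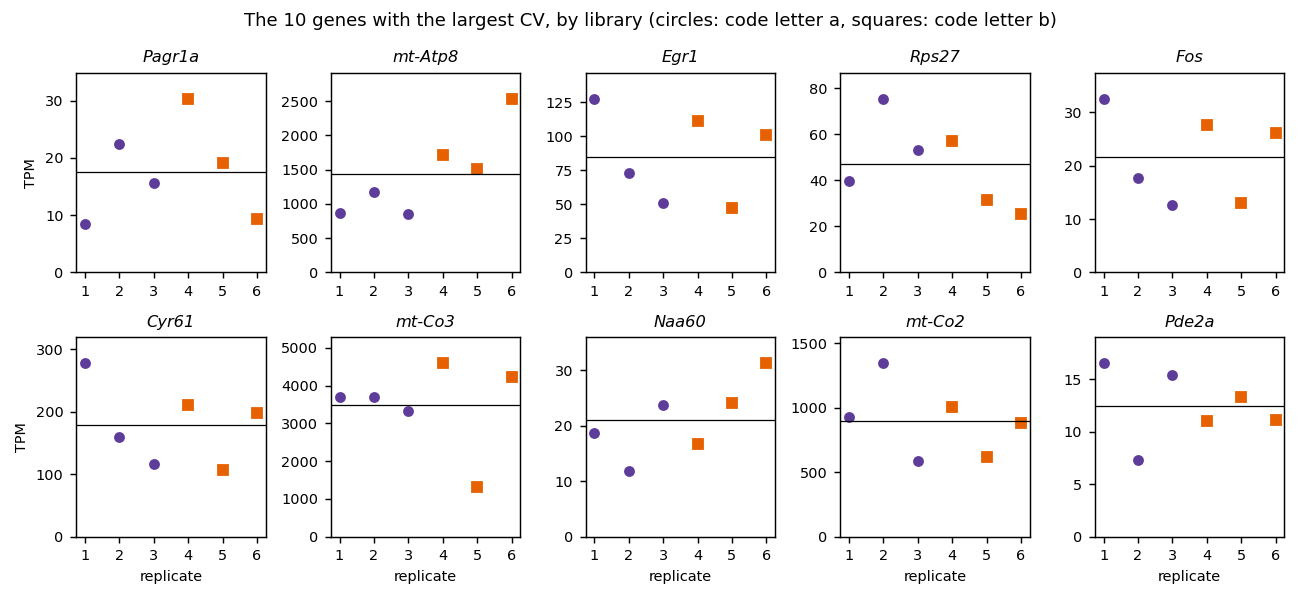
TPM by replicate of the 10 genes with the largest CV among genes of at least 10 TPM, with a line at the mean (n = 6) and axes from 0. Circles and squares are libraries with letter a and b in their codes, and Egr1, Fos and Cyr61 are high in replicates 1, 4 and 6.

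The library codes in the labels split the 6 libraries into 3 with the letter a (replicates 1 to 3) and 3 with the letter b (replicates 4 to 6), and the labels do not say what the letter stands for. The first principal component of the 6 libraries, 39.7% of the variance, ran from 3.44 to 7.12 with letter a and from -7.43 to -3.74 with letter b. Mitochondrially encoded genes took 2.49 to 2.71% of counts with a and 2.93 to 3.18% with b. Of the 13, 10 were lower in every library with a. Among them was the variable gene mt-Atp8, at 966 ± 180 TPM with a and 1915 ± 543 TPM with b (SD, n = 3 each). Over detected genes most differences between letters were small. The median absolute log2 difference of mean TPM was 0.0638, and 27 of 11117 genes exceeded 1.5-fold. TPM did not overlap between the letters for 74 of 237 detected members of all lists and families, 31.2%, and for 31.2% of all detected genes. Among detected atrial, ventricular and nodal genes these included Tbx5, Pam, Irx5, Pln, Cacna1g, Gjd3 and Rgs6. Pln stood at 240.3 ± 7.83 TPM with a and 276 ± 11.7 TPM with b (SD, n = 3 each). The part of whatever the letter marks in these differences was not tested.

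How far these levels held in the other groups was read from a test over all 14411 genes with enough counts. With stretch of the control cells, most identity genes showed no change that passed. Of 33 tested atrial, ventricular and nodal genes, 2 rose and 2 fell, 12.1% of them (edgeR quasi-likelihood test, adjusted p under 0.05). Of all genes, 5.95% were called, 2.55% upwards and 3.39% downwards. Hcn4 held 72.9, 79.4 and 89.0 CPM in the lowest, median and highest unstretched library and 80.5, 90.0 and 114 CPM in the stretched ones, a log2 change of 0.20 (SE 0.0520, adjusted p = 0.0186, edgeR). In the same edgeR test Tbx18 also rose (0.10, SE 0.0293, adjusted p = 0.0355). Nr2f2 (-0.13, SE 0.0307, adjusted p = 0.0142) and Irx5 (-0.13, SE 0.0402, adjusted p = 0.0454) fell by the edgeR test. The ranges of Hcn4 overlapped between the groups. The count rested on single libraries: 1 gene was called without unstretched replicate 2, 2 without replicate 3, and 1 when only the 2 groups entered the fit. Over all genes, 857 were called, and 2023 without stretched replicate 5.

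Among all 306 tested members of the lists and families, 9 rose and 15 fell with stretch, 7.84% of them against 5.95% of all genes. The smallest adjusted p were those of the sarcomere-bound Ankrd1, of Srf, of Actc1 and of the mitotic kinase Plk1. Ankrd1 held 108, 127 and 162 CPM without and 183, 202 and 224 CPM with stretch, with no overlap, a log2 change of 0.62 (SE 0.0679, adjusted p = 3.21e-06, edgeR). The changes of Srf, Actc1 and Plk1 were 0.37, 0.48 and -0.18. The median log2 change was -0.0068 over the 306 members and -0.0113 over all genes.

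Trim63, the targeted gene, held 509.6, 611 and 688 CPM in the lowest, median and highest control library and 56.9, 58.0 and 60.0 CPM in the knockdown libraries without stretch, with no overlap (-3.52 on the log2 scale, SE 0.0804, adjusted p = 1.26e-21, edgeR). Most atrial, ventricular and nodal genes were lower in the knockdown cells. Of the 33 tested identity genes 5 rose and 24 fell, 87.9% of them. Of all genes, 57.8% were called, 28.0% upwards and 29.7% downwards. The median log2 change of the identity genes was -0.82, against 0.0087 over all genes. Of 14 atrial genes 12 fell and none rose, of 14 nodal genes 10 fell and 3 rose, and of 5 ventricular genes 2 fell and 2 rose. Of 25 tested sarcomere genes 20 fell and 3 rose. These lists were chosen with earlier results of these data known, so the shares are descriptions and no test of the lists. A gene short of the count filter's level in some libraries could enter the test through groups where it was higher. Such entry favours a call without forcing one. Among the 26 identity genes at that filter's level in all libraries of both groups, a limit set after seeing the data, 4 rose and 19 fell, where 60.9% of all such genes were called, 28.8% upwards and 32.2% downwards. The 7 others were Bmp10, Cacna1d, Cntn2, Kcnip2, Mybphl, Myl2 and Smoc2. With the same limit, 10 of 12 atrial genes fell and 0 rose, and of 11 nodal genes 7 fell and 3 rose. Of 3 ventricular genes 2 fell and 1 rose, and of 23 sarcomere genes 19 fell and 3 rose.

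Dkk3 had the smallest adjusted p of all list and family members, with 417, 428 and 439 CPM in unstretched control libraries and 101, 112 and 120.3 CPM in knockdown libraries, a log2 change of -2.07 (SE 0.0407, adjusted p = 5.58e-24, edgeR). Trim63 came next, then Cdh2 (-1.03). Myl7 held 204, 211 and 225 CPM in control and 68.6, 72.6 and 81.3 CPM in knockdown libraries (-1.68, SE 0.0729, adjusted p = 2.8e-16, edgeR), and Hcn4 changed by -1.02 (SE 0.0536, adjusted p = 3e-15, edgeR). The libraries of Dkk3 and of Myl7 did not overlap between the groups. Nr2f2 (-0.05), Nppa (-0.21), Tbx18 (-0.05) and Kcnip2 (0.55) did not pass.

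Of the ventricular and nodal genes that rose, Hey2 held 0.974, 1.17 and 1.33 CPM in control and 3.89, 4.28 and 4.67 CPM in knockdown libraries (1.75, SE 0.104, adjusted p = 3.48e-14, edgeR). Myl2 held 0.0197, 0.0544 and 0.117 CPM in control and 0.173, 0.315 and 0.386 CPM in knockdown libraries (2.02, SE 0.387, adjusted p = 6.28e-05, edgeR), and it entered the test only through other groups, since 0 of 6 control libraries reached the level of the count filter, 0.233 CPM. Tbx3 changed by 0.95 (SE 0.0847, adjusted p = 1.91e-10, edgeR), Cacna1h by 0.41 and the connexin Gjc1 by 0.27. Both comparisons share the unstretched control libraries. The codes also hold a number that is constant within each group, so anything it marks cannot be told apart from stretch or knockdown.

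**Figure D5:**
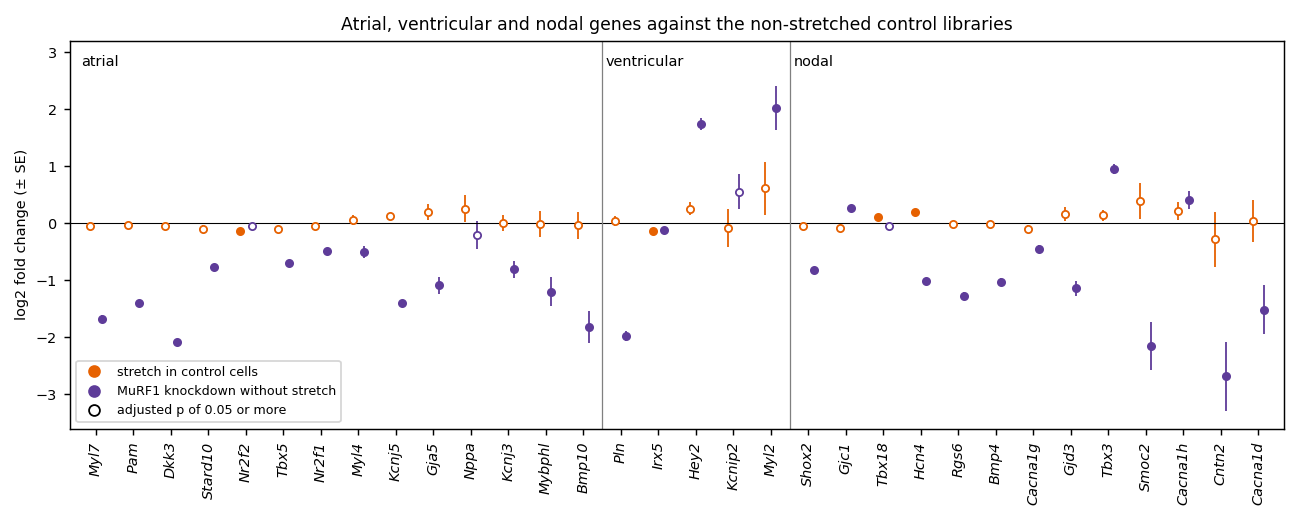
Log2 fold changes with their standard errors (n = 6 libraries per group) of the tested atrial, ventricular and nodal genes, except 1 that is not drawn, against the unstretched control libraries, from the edgeR fit to 24 libraries. Filled points had an adjusted p under 0.05, which 4 of all 33 tested genes reached with stretch and 29 with knockdown. Those are 12.1% and 87.9%, against 5.95% and 57.8% of all 14411 genes.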

How the data were processed

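Poly(A) RNA of HL-1 cells was sequenced from stranded libraries, 6 per group in 4 groups, and samples were grouped by their titles. The deposited table of 20351 genes held estimated counts, which need not be whole; per the submitters' processing notes, the tools were kallisto 0.44.0, DESeq2 1.18.1 and R 3.4.4 with GRCm38.p6. The authors' normalized signal table was used as an alternative only, and how it was scaled is not given in the sources used here. Lengths were found for 18608 genes (18373 by symbol, 235 by synonym) in GENCODE vM21 on GRCm38. The 1743 genes without one held 1.57% of counts and are left out of TPM. A length is the median spliced length over protein-coding models; leaving out incomplete models was decided after seeing the data. Depth was 38.0 to 51.3 M estimated counts per library, and a floor of 3 counts over the 6 libraries corresponds to 0.0109 CPM; floors cover counting error only.

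For comparisons between groups, estimated counts were rounded and fitted over all 24 libraries with the quasi-likelihood test of edgeR 4.0.16 in R 4.3.3 (TMM scaling, 14411 genes left by filterByExpr at its settings of 10 counts and 15 in total), with p-values adjusted by Benjamini-Hochberg. The script was tested on simulated data. Alternatives were other lengths, the normalized table, CPM, other limits for detection, other size factors, no filter, a replicate block, only the 2 groups compared, DESeq2 1.42.0, and leaving out each unstretched control library or stretched replicate 5. Promoter words were searched in RefSeq windows of GRCm38.p6, and 31-base words of transcripts were compared between annotated genes. Named genes are all atrial, ventricular and nodal members, the 25 highest by TPM, the 2 highest of each family, the 4 highest of other lists with defining genes at 0, the 10 highest and 10 lowest by CV among genes of at least 10 TPM, and, in each comparison, 4 members ranked first by adjusted p; other members named beside these were chosen with their values known. The members and lists were chosen with earlier results of these data known. Virus and transgene transcripts were not analysed here. Some genes of the lists enter the counts but are not reported here by name.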

Additional observations from a re-analysis of the deposited data

Results flagged for a closer look

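A library far from the other 5 of its group was looked for in 274 measures of the unstretched control cells, and 18 had one. For values with a normal distribution the limit used flags about 1 in 20. A gene with a count in only 1 library is always flagged, and the measures are not independent. The 18 can therefore not be set against that rate. By library the flags numbered 5 in replicate 1, 1 in replicate 2, 2 in replicate 3, 3 in replicate 4, 1 in replicate 5 and 6 in replicate 6.

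Among well expressed genes, Tnnt2 was low in replicate 2 at 1996 TPM, against 2218 to 2315 TPM in the others. Rplp1 was low in replicate 6 at 4361 TPM, against 4581 to 4670 TPM. Srf was high in replicate 1 at 127 TPM, against 100.8 to 109 TPM, and Adrb1 in the same library at 15.6 TPM. Prkaa2, Tbx20 and Nebl were high in replicate 6, at 86.0, 63.8 and 46.1 TPM. D cyclins stood apart in replicate 4, with Ccnd1 low at 4.25 TPM and Ccnd2 high at 1.27 TPM.

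Among genes near 0, Myl3 was high in replicate 5 at 0.647 TPM, against 0.0648 to 0.177 TPM in the others. Cacna1s was high in replicate 1 at 0.237 TPM and Myf5 in replicate 3 at 0.0747 TPM. Genes with a count in only 1 library were Agtr1b at 0.0274 TPM, Dsc1 at 0.0240 TPM, Hand1 at 0.0216 TPM, Kcna5 at 0.0165 TPM, Myog at 0.0268 TPM and Pax7 at 0.0105 TPM.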

How the results depend on the processing

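The number of detected genes lay between 10542 and 11695 under other lengths, other limits, CPM and the normalized table, and between 11129 and 11140 when each of the 6 libraries was left out. Shares of the pool moved with the length. For mitochondrially encoded genes the share was 6.26% with the longest transcript, 8.93% with the union of exons, 6.16% with 200 bases subtracted, 4.03% with incomplete models kept (an alternative chosen after seeing the data) and 2.81% of counts. For ribosomal protein genes it was 12.7%, 10.6%, 15.8%, 10.5% and 4.77% in the same order, and 13.8% without mitochondrially encoded genes in the pool. For the sarcomere list it was 0.284% with the union of exons, 0.380% with incomplete models kept, 0.292% of counts and 0.474% without mitochondrially encoded genes. Longer or shorter lengths rescale TPM by construction. The order of the 2 highest paralogues turned in these log2 ratios. With the longest transcript, Myl12a to Myl7 was -0.29, Tpm1 to Tpm4 -0.61, Nr2f2 to Nr2f6 -0.36 and Tbx20 to Tbx5 -0.69. With the union of exons, Myh8 to Myh6 was -0.0074, Myl12a to Myl7 -1.09, Tpm1 to Tpm4 -1.73, Gja1 to Gjc1 -0.10, Mef2a to Mef2d -0.38, Nr2f2 to Nr2f6 -0.96, Tbx20 to Tbx5 -0.85, Pkp2 to Pkp4 -0.18 and Sgce to Sgcb -1.28. With incomplete models kept, Myh8 to Myh6 was -2.16, Nr2f2 to Nr2f6 -0.47 and Tbx20 to Tbx5 -0.11. In CPM, Tpm1 to Tpm4 was -0.17, Slc25a5 to Slc25a4 -0.20, Prkag1 to Prkag2 -0.73 and Pkp2 to Pkp4 -0.28. With stretch, 377 genes were called when only the 2 groups entered the fit and 590 to 2023 when each unstretched control library, or stretched replicate 5, was left out, 2023 being without the latter; the cause was not tested. Among the atrial, ventricular and nodal genes the calls with stretch numbered 1 with only the 2 groups and 1 to 5 with the same libraries left out in turn. The other stretched libraries were not left out. Without the filter 376 genes rose and 243 fell with stretch. With knockdown the calls ranged from 7974 to 8888, and 28 to 29 of the identity genes, with the same libraries left out; no knockdown library was. With a replicate block 946 genes were called with stretch and 8378 with knockdown, 5 and 29 of them identity genes. Deviations of same-numbered libraries correlated at -0.0638 to 0.137. These values do not tell whether same-numbered libraries share a culture or a batch, which was not tested.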

Other observations

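Genes of the Y chromosome gave unequal values in the 6 libraries, and these were noticed after their values were seen. Uty held 0 to 2 counts per library and Kdm5d, at 0.238 ± 0.0721 TPM (SD, n = 6), 14.1 to 38.4. The other Y genes looked up with them, Ddx3y, Eif2s3y, Usp9y, Zfy1 and Zfy2, were not listed in the table used here. Gm47283, which the GENCODE vM21 annotation also places on the Y chromosome, stood at 3435 ± 385 TPM, and shared 46.8% of its 31-base words with Gm21887. Reads of shared words can be assigned to either gene, and whether the reads of Gm47283 came from the Y chromosome was not tested.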
